A study of Mus musculus with 32 samples.

Results

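CD11b+ cells of mouse neuroblastomas were compared with CD11b+ cells of EG7 tumours on 6 of the 32 arrays of the series, chosen by their sample labels, with 3 arrays for each tumour model. The neuroblastomas had arisen spontaneously in the peritoneum of Th-MYCN transgenic mice, in which the tyrosine hydroxylase (Th) promoter drives the oncogene MYCN in cells of the sympathetic lineage. The EG7 tumours grew in WT mice that had received a transplant of EG7, a lymphoma (thymoma) line of T lymphocyte origin. Tumours of both kinds were digested and enriched for CD11b+ cells with magnetic beads, and 100 ng of total RNA per array was hybridised to a 3' expression chip. For the hosts, the sources used here give no age, sex or strain, so the tumour type, its site and the genetic background of its host cannot be told apart. Whether the 3 arrays of a model came from separate animals is not stated either, and p-values therefore measure the spread among these samples, which may be technical.

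CD11b, encoded by Itgam, is an integrin chain carried by monocytes, macrophages, neutrophils and some dendritic and natural killer cells, so a bead enrichment yields a mixture of myeloid cells. Macrophages in tumours come from blood monocytes that enter the tissue and from resident macrophages that were there before it. Resident macrophages take up dying cells, recycle the iron of red blood cells and carry receptors such as Tim-4, CRIg and CD163, whereas monocyte-derived macrophages more often carry Ly6C or MHC class II and take on inflammatory and matrix-degrading programmes. In peritoneal macrophages the transcription factor Gata6 maintains a tissue-specific set of genes. In macrophages that recycle iron the factor SpiC does so, and these cells carry the iron exporter ferroportin.

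Values are log2 signals, and differences are neuroblastoma minus EG7 with their standard error (SE, n = 3 arrays each) and an adjusted p from limma, adjusted over all 12577 genes tested. A gene rose or fell when its adjusted p was under 0.05. In bulk RNA of this kind, fewer cells of a type and less RNA per cell cannot be told apart. Because 3 arrays a group give an unsteady estimate of the spread, each call was also refitted with 1 array left out, and the arrays whose omission ended a call are named in parentheses with the largest adjusted p reached (NB, neuroblastoma).

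RNA of myeloid cells, the labelled type, was plentiful on all 6 arrays. The mean log2 signal of 16 pan-myeloid genes was 11.51, 11.96 and 11.44 in neuroblastoma and 11.84, 11.83 and 11.82 in EG7, against medians of 3.84 to 3.93 over all probe sets of an array. Of the 16, 0 were called by limma and 1 had an unadjusted p under 0.05. Without neuroblastoma array 2, described next, Spi1 and Ctss were lower, at -0.74 ± 0.19 (adjusted p = 0.0432) and -0.70 ± 0.19 (adjusted p = 0.0494). The macrophage growth factor receptor Csf1r read 10.52, 10.21 and 10.19 on the neuroblastoma arrays and 10.36, 10.29 and 10.17 on the EG7 arrays, the signalling adaptor Tyrobp 12.85, 13.11 and 13.03 against 13.04, 13 and 13, and the lysozyme gene Lyz2 13.31, 13.11 and 13.42 against 13.51, 13.48 and 13.54. Itgam itself read 8.10, 7.88 and 6.75 against 8.58, 8.60 and 8.16, a difference of -0.87 ± 0.37 (adjusted p = 0.167). Signals of other cells were high as well. The fibroblast and pericyte marker Col3a1 read 13.16, 12.32 and 13.01 on the neuroblastoma arrays and 12.56, 12.87 and 12.98 on the EG7 arrays. Acta2, of the same list, read 12.11, 10.72 and 11.72 against 10.44, 10.76 and 10.37. The pan-myeloid means therefore do not measure the purity of the preparations.

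Neuroblastoma array 2 differed from the others of its model for some gene groups and, over all genes tested, correlated more with the EG7 arrays. Over all genes tested its mean correlation with the other neuroblastoma arrays was 0.954, against 0.955 for array 1 and 0.962 for array 3. Its mean correlation with the EG7 arrays over the same genes was 0.929, against 0.899 and 0.895 for neuroblastoma arrays 1 and 3. Genes of the type I interferon response had a mean of 9.31 on array 2 but of 5.79 and 6.80 on arrays 1 and 3, with 7.06, 7.14 and 7.01 in EG7. Natural killer cell markers read 6.79 on array 2 against 3.31 and 4.2 on arrays 1 and 3, and 4.91, 4.80 and 4.83 in EG7. B lymphocyte markers read 6.61 on array 2 against 4.47 and 5.77. Counts without this array stand beside those with it for most of the myeloid lists where they differ. The array was singled out after these values were seen, so differences, counts and adjusted p without it are a description and not a test. For interferon, lymphocyte and other genes that are high on it the choice itself makes the neuroblastoma mean lower. For genes that are low on it the choice makes that mean higher.

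**Figure D1:**
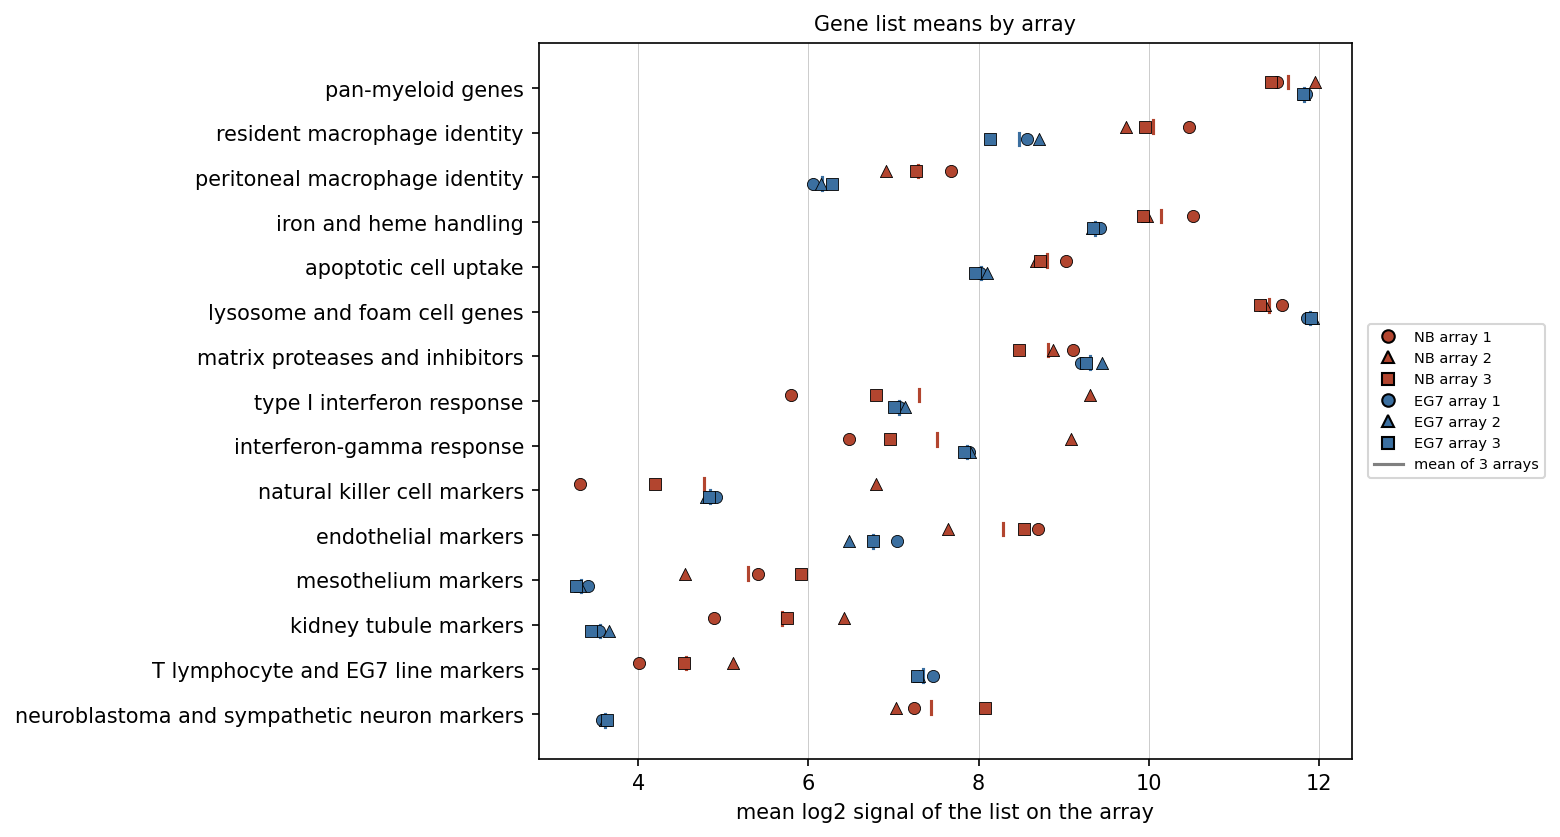
Mean log2 signal (x axis) of the members of 15 gene lists (rows) on each of the 6 arrays; red points are neuroblastoma (NB) and blue points EG7, the point shape gives the array number, and the vertical line is the mean of the 3 arrays. The resident macrophage list lies at 9.73 to 10.48 in neuroblastoma and 8.13 to 8.71 in EG7, while NB array 2 lies apart from the other NB arrays for the interferon and natural killer lists.

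Markers of other cell types differed between the preparations. Neuroblastoma and sympathetic neuron markers averaged 7.03 to 8.07 in neuroblastoma and 3.57 to 3.63 in EG7, and T lymphocyte and EG7 line markers 4.01 to 5.12 against 7.27 to 7.46. Endothelial markers averaged 7.64 to 8.70 in neuroblastoma and 6.48 to 7.04 in EG7, fibroblast and pericyte markers 8.08 to 9.29 against 7.40 to 7.96, kidney tubule markers 4.89 to 6.42 against 3.44 to 3.65, and mesothelium markers 4.55 to 5.91 against 3.26 to 3.41. Adrenal cortex markers stayed at 3.40 to 3.67 on all 6 arrays, below or near the array medians. Neutrophil markers overlapped, with means of 6.64 to 8.19 and 6.97 to 8.75.

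Over all 12577 genes tested, 9.49% rose and 5.22% fell in neuroblastoma. Without neuroblastoma array 2 the shares were 12.5% and 6.99% of 12884 genes. Counts of called list members below stand against these shares, and no list was tested as a set. To read genes expressed in both models and detected in EG7 macrophages, the calls were counted again among 5628 shared genes. These lay above the 60th percentile of the array in at least 2 of 3 arrays of each model and in all 4 arrays of macrophages sorted by flow cytometry from EG7 tumours of WT hosts, which were run on another chip and are used here only for ranks within an array. Among the shared genes 242 rose (4.3%) and 295 fell (5.24%), out of 1193 rises and 657 falls over all genes. No macrophages sorted from neuroblastoma were at hand, so the filter can drop genes that only neuroblastoma macrophages carry. It can thereby favour falls, and nothing is read from fewer shared genes rising than falling. The order of the 2 counts also turned with the scaling of the arrays. When each array was shifted to an equal pan-myeloid mean, which moved the median of all genes by 0.19, 211 shared genes were higher and 101 lower, and over all genes 1104 and 297. With that scaling, 13 genes described here kept their direction without passing: Acp5, Adgre1, Apoc2, Atf3, Ccl9, Cd55, Clec4n, Fscn1, Mcm3, Mfge8, Pdk1, Tnfrsf1b and Kit, with adjusted p from 0.0512 (Kit) to 0.312 (Clec4n). Of the 242 and 295 calls made without it, 164 rises and 134 falls exceeded 1 on the log2 scale, and 32 and 26 exceeded 2. Without neuroblastoma array 2, 308 shared genes rose (5.54%) and 459 fell (8.26%), and 216 of the 242 rises and 248 of the 295 falls were called there too. The count of 537 shared calls dropped to 317 without neuroblastoma array 1, to 290 without array 3, and to 112, 213 and 230 without EG7 array 1, 2 and 3.

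Of the genes that rose, 572 were expressed in both models, 487 in neuroblastoma alone and 134 in neither by this threshold. Of those that fell, 455 were expressed in both and 155 in EG7 alone. The sorted EG7 macrophages comprised a Ly6C+ MHC class II-negative population (A) and a Ly6C-negative MHC class II+ population (C), with 2 arrays each. Of the 295 shared genes that fell in neuroblastoma, 147 (49.8%) ranked higher on both C arrays than on both A arrays and 29 (9.83%) the other way. The same shares were 25.2% and 25.6% for the 242 that rose, and 40.7% and 10.9% for all shared genes. These shares are a description of ranks, and no test was made on them.

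Of the iron-recycling genes, Slc40a1, Spic and Trf rose. Slc40a1 encodes ferroportin, the exporter through which macrophages return iron to the blood. It read 12.51, 11.95 and 12.03 on the neuroblastoma arrays and 7.84, 7.10 and 7.52 on the EG7 arrays. Every neuroblastoma array lay more than 4 log2 units above every EG7 array, and the difference was 4.68 ± 0.25 (adjusted p = 0.000201). Spic encodes the ETS factor required for red-pulp macrophages of the spleen, and read 10.51, 10.25 and 10.45 on the neuroblastoma arrays and 6.73, 7.0 and 6.67 on the EG7 arrays. Its groups were also far apart, at 3.60 ± 0.16 (adjusted p = 0.000108). Trf, the iron carrier transferrin, read 11.70, 11.19 and 11.30 on the neuroblastoma arrays and 10.12, 10.03 and 9.96 on the EG7 arrays and rose by 1.36 ± 0.18 (adjusted p = 0.00485). In the macrophages sorted from EG7 tumours Slc40a1 ranked at the 51.6 and 53.2 percentiles in C and 61.2 and 50.9 in A, and Spic at 46.5 and 53.9 and 42.1 and 43.9, so neither was among the shared genes, and Trf had no rank there.

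The heme oxygenase gene Hmox1, whose product frees iron from heme, read 12.08, 10.19 and 10.68 on the neuroblastoma arrays and 8.77, 9.81 and 8.69 on the EG7 arrays. Neuroblastoma array 2 was close to EG7 array 2, and the difference of 1.89 ± 0.53 did not pass (adjusted p = 0.0617), whereas without neuroblastoma array 2 it was 2.29 ± 0.52 (adjusted p = 0.0291). Cd163, the scavenger receptor for haemoglobin bound to haptoglobin, read 11.07, 7.83 and 8.35 on the neuroblastoma arrays and 6.47, 7.08 and 5.24 on the EG7 arrays. All neuroblastoma arrays were above all EG7 arrays, but array 1 was far above arrays 2 and 3, and the difference was 2.82 ± 0.89 (adjusted p = 0.0844), or 3.45 ± 0.88 (adjusted p = 0.0438) without array 2. Nfe2l2, encoding the oxidative stress factor Nrf2, went the other way without array 2, at -0.90 ± 0.20 (adjusted p = 0.0297) against -0.73 ± 0.22 (adjusted p = 0.0734) with it. In all, 3 of 16 iron and heme genes tested rose (9.49% of all genes), with a median difference of 0.01, against -0.01 over all genes. Without array 2, 5 rose and 1 fell, against 12.5% and 6.99% of all genes in that fit.

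Iron storage and heme breakdown genes of the same list did not pass. The ferritin chains Fth1 and Ftl1 differed by -0.15 ± 0.14 (adjusted p = 0.54) and 0.03 ± 0.13 (adjusted p = 0.905), the biliverdin reductases Blvra and Blvrb by -0.01 ± 0.15 and -0.11 ± 0.14, and the lysosomal heme transporter Slc48a1 by -0.29 ± 0.21. Of the red blood cell transcripts, 0 of 5 were called by limma and 1 had an unadjusted p under 0.05. Hba-a1 read 12.30, 11.56 and 12.77 on the neuroblastoma arrays and 11.90, 11.14 and 11.74 on the EG7 arrays.

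Of 21 resident macrophage genes 5 rose, Slc40a1 and another 4, and 1 fell, against 9.49% and 5.22% of all genes. Timd4, encoding the phosphatidylserine receptor Tim-4, read 6.15, 8.03 and 8.28 on the neuroblastoma arrays and 3.08, 3.02 and 3.16 on the EG7 arrays. The EG7 values lay below the array medians, every neuroblastoma array was above them, and it rose by 4.40 ± 0.54 (adjusted p = 0.00381). Vsig4, encoding the complement receptor CRIg, read 9.89, 8.24 and 10.03 on the neuroblastoma arrays and 3.95, 5.50 and 3.21 on the EG7 arrays, with no overlap, and rose by 5.17 ± 0.70 (adjusted p = 0.00518). Cd5l, a secreted protein that protects macrophages from apoptosis, read 11.32, 13.03 and 13.04 on the neuroblastoma arrays and 8.68, 9.90 and 8.34 on the EG7 arrays, with no overlap between the models, and rose by 3.49 ± 0.59 (adjusted p = 0.0115). Cx3cr1, the fractalkine receptor of patrolling monocytes and many resident macrophages, read 8.89, 8.44 and 8.21 on the neuroblastoma arrays and 7.16, 7.09 and 6.79 on the EG7 arrays, a rise of 1.5 ± 0.22 (adjusted p = 0.00707). Another probe set of Cx3cr1, of lower signal, overlapped between the models, with a difference of 0.32.

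Not every marker of mature macrophages was higher. Adgre1, which encodes F4/80, read 10.76, 11.14 and 10.69 on the neuroblastoma arrays and 11.85, 11.77 and 11.72 on the EG7 arrays and fell by 0.92 ± 0.17 (adjusted p = 0.0162). The mannose receptor Mrc1, the folate receptor Folr2, the uptake receptor Mertk and the chemokine Pf4 overlapped or missed the threshold, at 0.37 ± 0.40, 0.55 ± 0.24, 0.65 ± 0.25 and -0.08 ± 0.26. Lyve1 and Stab1, receptors for hyaluronan and modified proteins that endothelium also carries, differed by 2.98 ± 0.82 (adjusted p = 0.0573) and 1.48 ± 0.44 (adjusted p = 0.0731), and by 3.38 ± 0.90 (adjusted p = 0.048) and 1.81 ± 0.43 (adjusted p = 0.0336) without neuroblastoma array 2. Marco was at 2.14 ± 0.61 (adjusted p = 0.0621), and at 2.49 ± 0.64 (adjusted p = 0.0442) without that array. Over the resident macrophage list the median was 0.92, and 13 lay higher on all neuroblastoma arrays than on any EG7 array, which held for 19.1% of all genes (36.1% counting both directions). Without array 2, 9 rose and 1 fell (12.5% and 6.99% of all genes in that fit). The list was lowest on that array among the neuroblastoma arrays, so leaving it out raises the list mean by choice. Timd4 and Vsig4 lay above the 60th percentile on 0 and 1 of the EG7 arrays, and such genes can pass the filter on low values through neuroblastoma alone. Of the 5 rises, 1, Cx3cr1, was detected in the sorted macrophages. Leaving out 1 array ended the calls of Cd5l (EG7 array 1 or 3, adjusted p up to 0.0624) and Adgre1 (any EG7 array, adjusted p up to 0.0826).

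**Figure D2:**
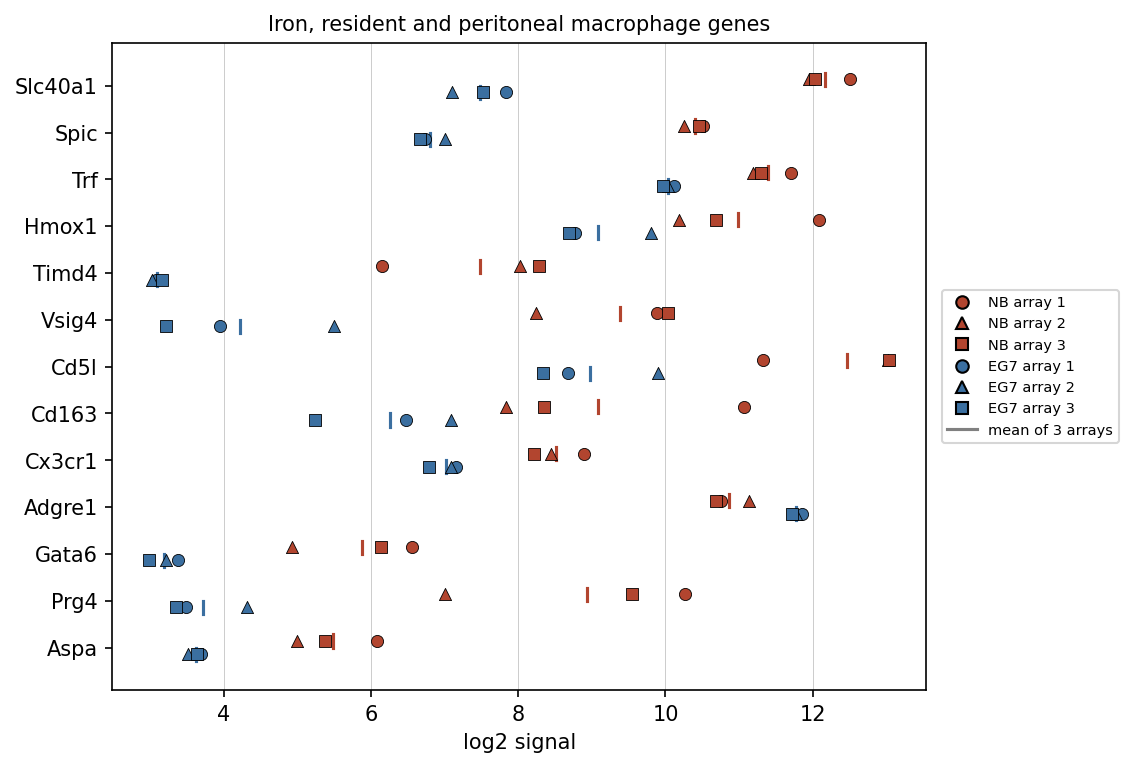
Log2 signal (x axis) of 13 iron, resident and peritoneal macrophage genes (rows) on each array; red points are neuroblastoma (NB), blue points EG7, shapes give the array number and vertical lines the mean of 3 arrays. The models are well apart for Slc40a1 (11.95 to 12.51 against 7.10 to 7.84) and Spic, NB array 2 comes near EG7 for Hmox1 and Cd163, and Adgre1 is the only gene shown with lower neuroblastoma values.

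Upstream sequences of 4 of these genes are shown because Spic, Cd5l, Timd4 and Vsig4 were all higher in neuroblastoma and a RefSeq promoter entry (assembly GRCm38.p6) was at hand for 4 of the 10 genes sought. Each run covers the 250 bases before the annotated start, read 5′ to 3′ on the strand of the gene. Capitals mark matches on either strand to 2 motifs, GAGGAA, the core bound by the ETS factors SpiC and Spi1, and TGCTGA, the core bound by MAF factors. They are Spic at chr10:88683024-88683273 (minus strand), Cd5l at chr3:87357631-87357880 (plus strand), Timd4 at chr11:46810549-46810798 (plus strand) and Vsig4 at chrX:96293439-96293688 (minus strand).
Spic: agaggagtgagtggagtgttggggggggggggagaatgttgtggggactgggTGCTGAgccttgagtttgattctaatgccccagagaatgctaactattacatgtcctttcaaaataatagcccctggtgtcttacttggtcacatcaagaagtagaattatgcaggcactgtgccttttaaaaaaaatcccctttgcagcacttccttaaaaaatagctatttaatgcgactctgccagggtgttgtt
Cd5l: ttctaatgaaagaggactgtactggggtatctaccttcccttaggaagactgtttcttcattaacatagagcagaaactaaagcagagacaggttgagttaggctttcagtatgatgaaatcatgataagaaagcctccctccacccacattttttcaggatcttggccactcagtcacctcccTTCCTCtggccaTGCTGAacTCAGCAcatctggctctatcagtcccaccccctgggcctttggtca
Timd4: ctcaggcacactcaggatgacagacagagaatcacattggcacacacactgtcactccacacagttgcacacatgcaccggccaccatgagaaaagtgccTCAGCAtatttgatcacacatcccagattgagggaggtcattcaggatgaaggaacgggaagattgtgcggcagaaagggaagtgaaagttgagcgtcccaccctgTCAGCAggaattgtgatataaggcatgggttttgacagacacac
Vsig4: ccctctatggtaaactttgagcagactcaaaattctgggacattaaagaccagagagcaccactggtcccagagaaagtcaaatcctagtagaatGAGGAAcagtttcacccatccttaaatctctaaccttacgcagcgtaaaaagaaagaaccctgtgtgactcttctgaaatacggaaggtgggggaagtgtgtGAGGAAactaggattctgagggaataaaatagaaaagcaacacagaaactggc
The ETS core stood in Cd5l, on the opposite strand 66 bases before the start, and in Vsig4, at 155 and 53 bases before it. The MAF core stood in Spic at 198 bases, in Cd5l at 54 and 46 bases, and in Timd4 at 150 and 44 bases before the start. Of 32851 RefSeq mouse promoters of this length, 7639 (23.3%) held the ETS core and 5282 (16.1%) the MAF core. The matches are a description of letters and say nothing about binding in these cells. The MAF factor gene Maf read 8.89, 7.51 and 7.29 on the neuroblastoma arrays and 7.41, 6.91 and 7.03 on the EG7 arrays, a difference of 0.78 ± 0.42 (adjusted p = 0.273), and the ETS factor gene Spi1 differed by -0.32 ± 0.36 (adjusted p = 0.611).

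In the peritoneal macrophage programme 3 of 14 genes rose (9.49% of all genes), its regulator among them. Gata6 read 6.56, 4.92 and 6.14 on the neuroblastoma arrays and 3.38, 3.21 and 2.99 on the EG7 arrays. The EG7 values lay below the array medians, and the neuroblastoma values, although modest, were all above them, a rise of 2.68 ± 0.41 (adjusted p = 0.00837). Prg4, the lubricant proteoglycan that Gata6-dependent macrophages make and that joint lining and mesothelial cells also make, read 10.26, 7.01 and 9.55 on the neuroblastoma arrays and 3.48, 4.32 and 3.35 on the EG7 arrays and rose by 5.22 ± 0.81 (adjusted p = 0.00868). Aspa, an aspartoacylase found in the same macrophages, read 6.08, 5.00 and 5.37 on the neuroblastoma arrays and 3.69, 3.52 and 3.64 on the EG7 arrays and rose by 1.87 ± 0.28 (adjusted p = 0.00771). All 3 lay above the 60th percentile of every neuroblastoma array and of 0 EG7 arrays and were not detected in the sorted macrophages. Genes of this kind can pass the filter on low values through the group where they are high alone, so their count is no support for a change of the programme.

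Neuroblastoma array 2 was the lowest of its model for all 3 genes. Without array 2, 6 of the 14 rose and 1 fell (12.5% and 6.99% of all genes in that fit). Leaving out an array that is low for such genes raises their differences by choice, so nothing is read from that count. Alox15, a lipoxygenase of peritoneal macrophages and eosinophils, was at 2.32 ± 0.66 (adjusted p = 0.0638) with all arrays and 2.70 ± 0.70 (adjusted p = 0.0456) without array 2. Ltbp1 and Garnl3 were at 2.19 ± 0.54 (adjusted p = 0.0394) and 1.21 ± 0.22 (adjusted p = 0.0153) in that fit, and the coagulation factor gene F10 was lower there, at -1.03 ± 0.21 (adjusted p = 0.0227). Serpinb2, Selp and Cd93 differed by 0.47 ± 0.43, 0.22 ± 0.33 and 0.33 ± 0.22, none of which passed. With 1 array left out, the call was lost for Prg4 (EG7 array 1, adjusted p = 0.0508). Markers of mesothelium, which lines the same cavity, rose for 5 of 8 tested with all arrays and 8 of 8 without array 2. Of all genes 9.49% and 12.5% rose in these fits. By the threshold used here, 6 of the 8 markers were expressed in neuroblastoma alone and 0 in both models. They too can pass the filter through neuroblastoma alone, and nothing is read from their counts. These markers were also lowest on array 2, at 4.55 against 5.40 and 5.91, so the larger count follows in part from leaving it out. Wt1, which marks mesothelium, read 4.49, 4.45 and 4.60 on the neuroblastoma arrays and 3.33, 3.08 and 2.72 on the EG7 arrays. What part those cells had in Prg4 and Gata6 was not tested.

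Uptake of dying cells involves receptors and bridging molecules, and its genes moved in both directions. Stab2, a scavenger and phosphatidylserine receptor best known from sinusoidal endothelium, read 6.59, 7.33 and 6.77 on the neuroblastoma arrays and 3.57, 2.96 and 3.37 on the EG7 arrays and rose by 3.60 ± 0.26 (adjusted p = 0.000621). Itgb5, an integrin chain that binds Mfge8, read 10.80, 10.77 and 10.64 on the neuroblastoma arrays and 9.88, 9.95 and 9.66 on the EG7 arrays and rose by 0.91 ± 0.15 (adjusted p = 0.0107). Gas6, the bridging ligand of the Tyro3, Axl and Mertk receptors, read 9.98, 8.16 and 9.39 on the neuroblastoma arrays and 7.38, 7.39 and 6.57 on the EG7 arrays and rose by 2.06 ± 0.48 (adjusted p = 0.0343). Mfge8, the bridging ligand of the integrins, read 9.70, 9.01 and 9.66 on the neuroblastoma arrays and 10.50, 11.73 and 10.85 on the EG7 arrays and fell by 1.57 ± 0.36 (adjusted p = 0.0312).

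With Timd4, 4 of 18 uptake genes rose and 1 fell (9.49% and 5.22% of all genes), with a median of 0.60. Without array 2, the lowest of its model for this list, 7 rose and 0 fell (12.5% and 6.99% of all genes). Pros1, another ligand of Mertk, was at 0.89 ± 0.29 (adjusted p = 0.096) and at 1.15 ± 0.25 (adjusted p = 0.0274) without array 2. Cd36 and Lrp1 overlapped between the models and Itgav did not, but all missed the threshold, at 0.55 ± 0.42, 0.71 ± 0.36 and 0.78 ± 0.27. Dropping 1 array undid the calls of Itgb5 (EG7 array 1, adjusted p = 0.0553), Gas6 (NB array 1 or 3 or any EG7 array, adjusted p up to 0.11) and Mfge8 (each of the 6 arrays, adjusted p up to 0.0823). Endothelial markers rose for 9 of 15, where 9.49% of all genes rose. Stab2 was highest on neuroblastoma array 2 while the endothelial mean was lowest there, at 7.64 against 8.70 and 8.54. Leaving out that array raises the endothelial mean by choice, and 13 then rose (12.5% of all genes in that fit). The part of endothelial cells in Stab2 was not tested.

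Lectin and scavenger receptors moved in both directions. Colec12, a collectin scavenger receptor of macrophages and endothelium, read 7.65, 7.71 and 7.50 on the neuroblastoma arrays and 4.69, 4.49 and 5.01 on the EG7 arrays. Its groups were tight and far apart, a rise of 2.89 ± 0.18 (adjusted p = 0.000379). The DC-SIGN family members Cd209g and Cd209b read 7.65, 9.65 and 10.06 against 4.86, 6.14 and 3.29, and 7.78, 6.19 and 6.14 against 5.04, 4.90 and 4.45. They rose by 4.36 ± 0.87 (adjusted p = 0.0204) and 1.91 ± 0.46 (adjusted p = 0.0373), and Cd209f was at 2.46 ± 0.69 (adjusted p = 0.0595). Cd209a, a member of the same family expressed by dendritic cells, was at 7.40, 4.21 and 3.86 against 7.58, 7.52 and 7.83, where neuroblastoma array 1 resembled EG7 and arrays 2 and 3 were low, and the difference did not pass (adjusted p = 0.115).

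Among C-type lectins that sense microbes and damage, Clec5a and Clec4n were lower. Clec5a, a Tyrobp-coupled receptor, read 5.58, 5.92 and 4.92 on the neuroblastoma arrays and 7.54, 6.87 and 8.18 on the EG7 arrays and fell by 2.06 ± 0.39 (adjusted p = 0.0176). Clec4n, encoding Dectin-2, read 11.90, 12.11 and 11.91 on the neuroblastoma arrays and 12.57, 12.53 and 12.53 on the EG7 arrays and fell by 0.57 ± 0.14 (adjusted p = 0.0393). Clec4e, encoding Mincle, did not pass with all arrays, at -1.0 ± 0.40 (adjusted p = 0.152). It was at -1.45 ± 0.23 without array 2, whose omission lowers its neuroblastoma mean. Clec7a (Dectin-1) and the scavenger receptor Msr1 differed by -0.38 ± 0.33 and 0.02 ± 0.31. In all 3 of 21 lectin and scavenger genes rose and 2 fell (9.49% and 5.22% of all genes). Without array 2, 4 rose and 4 fell (12.5% and 6.99% of all genes). Calls that did not survive the loss of 1 array were those of Clec5a (NB array 3 or EG7 array 1 or 3, adjusted p up to 0.079), Cd209g (NB array 3 or EG7 array 1 or 3, adjusted p up to 0.0836), Cd209b (NB array 3 or any EG7 array, adjusted p up to 0.12) and Clec4n (NB array 1 or 3 or any EG7 array, adjusted p up to 0.153).

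Complement and coagulation genes changed at single members. C4b, the fourth complement component, read 11.35, 10.05 and 10.51 on the neuroblastoma arrays and 8.13, 8.65 and 7.32 on the EG7 arrays and rose by 2.60 ± 0.44 (adjusted p = 0.0115). Cd55, the decay-accelerating factor that limits complement on cells, rose by 1.0 ± 0.25 (adjusted p = 0.0454). F7, coagulation factor VII, read 7.18, 6.22 and 5.32 on the neuroblastoma arrays and 9.76, 9.64 and 9.63 on the EG7 arrays. The EG7 values were tight and every neuroblastoma array lay well below them, a difference of -3.44 ± 0.44 (adjusted p = 0.00436). F7 ranked at the 98.4 and 98.3 percentiles in the sorted C arrays and at 88.5 and 83.9 in the A arrays. The C1q chains C1qa, C1qb and C1qc, high on all arrays, differed by 0.33 ± 0.15, 0.23 ± 0.14 and 0.37 ± 0.15, and none passed. Of 19 genes 2 rose and 1 fell (9.49% and 5.22% of all genes), and without array 2, 2 rose and 3 fell (12.5% and 6.99%). Leaving out 1 array ended the calls of C4b (EG7 array 1, adjusted p = 0.0562) and Cd55 (NB array 1 or 3 or any EG7 array, adjusted p up to 0.136).

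Probe sets of MHC class II genes gave some of the largest negative differences, and others of the same locus lay higher. H2-Eb1, the beta chain of I-E, read 7.02, 9.64 and 7.79 on the neuroblastoma arrays and 12.62, 12.76 and 12.76 on the EG7 arrays. All neuroblastoma arrays were at least 2 log2 units below EG7, with array 2 the highest of them, and the difference was -4.56 ± 0.62 (adjusted p = 0.00518). The alpha chain of I-E, H2-Ea, which some mouse haplotypes do not transcribe, went the other way. It read 8.16, 10.74 and 7.95 on the neuroblastoma arrays and 5.29, 5.47 and 5.24 on the EG7 arrays and rose by 3.62 ± 0.71 (adjusted p = 0.0192). The sorted EG7 arrays placed H2-Ea at the 31.2 and 32.2 percentiles in C and the 28.1 and 34.9 percentiles in A, and H2-Eb1 at 99.7 and 99.6 in C.

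For H2-Aa, the alpha chain of I-A, the answer depended on the probe set. The probe set that stood for the gene read 9.80, 11.78 and 10.34 on the neuroblastoma arrays and 13.23, 13.24 and 13.33 on the EG7 arrays and the difference was -2.63 ± 0.48 (adjusted p = 0.0146). Another read 4.11, 7.70 and 5.28 against 10.16, 10.20 and 10.17. A further probe set, with the highest mean over these 6 arrays, read 12.09, 13.20 and 12.67 against 12.22, 12.34 and 12.40, a difference of 0.33 ± 0.28 (adjusted p = 0.48). No direction is therefore given for the transcript of H2-Aa. H2-Ea also had several probe sets, of which another was higher in neuroblastoma, at 6.78, 9.68 and 7.39 against 3.06, 3.16 and 2.91, while the last was near background on all arrays. The chip had only 1 probe set for H2-Eb1. Alleles of these genes differ between mouse strains, the strains are not given, and allele and level cannot be told apart from these probe sets.

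**Figure D3:**
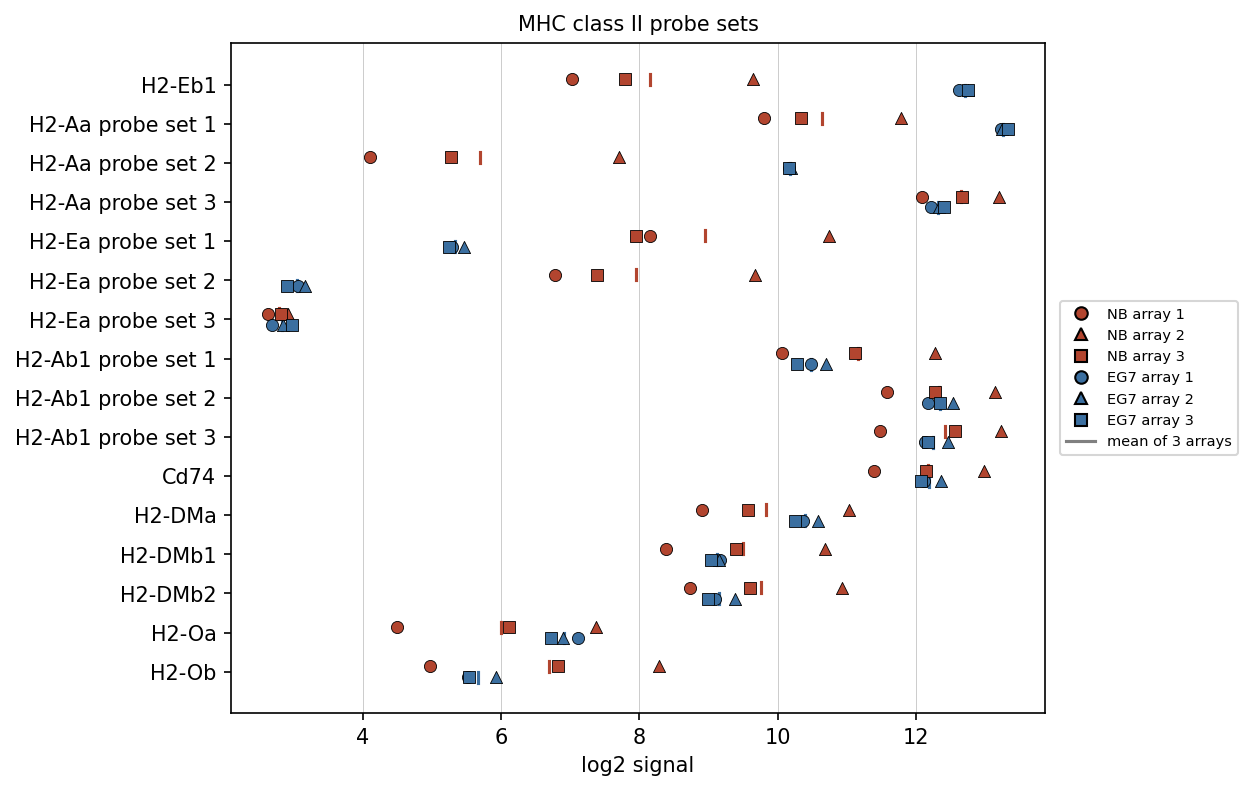
Log2 signal (x axis) of MHC class II probe sets (rows, several for a gene where the chip carried them) on each array; red points are neuroblastoma (NB), blue points EG7, shapes give the array number and vertical lines the mean of 3 arrays. H2-Eb1 and 2 of 3 H2-Aa probe sets lie lower in neuroblastoma, 2 of 3 H2-Ea probe sets lie higher, and for H2-Ab1, Cd74 and the H2-DM genes the EG7 arrays fall between NB array 1 and NB array 2.

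Most other class II genes named here overlapped between the models. H2-Ab1, the beta chain of I-A, read 11.48, 13.23 and 12.56 on the neuroblastoma arrays and 12.13, 12.46 and 12.17 on the EG7 arrays, and the invariant chain Cd74 read 11.40, 12.98 and 12.15 on the neuroblastoma arrays and 12.12, 12.37 and 12.08 on the EG7 arrays. Both differed by less than the spread among neuroblastoma arrays, at 0.17 ± 0.42 (adjusted p = 0.828) and -0.01 ± 0.38 (adjusted p = 0.987). The class II transactivator Ciita read 3.84, 7.23 and 4.98 against 4.85, 5.18 and 5.01, with neuroblastoma array 2 above and array 1 below all EG7 arrays. The costimulatory genes Cd80 and Cd86 differed by -0.49 ± 0.34 and 0.52 ± 0.39, and Cd40 by -1.13 ± 0.94. The thiol reductase gene Ifi30 and the cathepsin gene Ctss lay lower on every neuroblastoma array than on any EG7 array, at 11.65, 12.28 and 11.88 against 12.48, 12.68 and 12.51 and 12.75, 13 and 12.39 against 13.15, 13.32 and 13.33, without passing (adjusted p = 0.0861 and adjusted p = 0.109). Of 18 genes 1 was called higher and 2 lower, against 9.49% and 5.22% of all genes. The 2 were H2-Eb1 and the H2-Aa probe set whose direction is not settled. Without array 2, 1 was higher and 5 lower (12.5% and 6.99% of all genes in that fit). The added ones were H2-DMa at -1.17 ± 0.25, Ifi30 at -0.79 ± 0.17 and Ctss at -0.70 ± 0.19. Each of these was highest on array 2 among the neuroblastoma arrays, so leaving it out lowers their mean by choice. With 1 array left out, the call was lost for H2-Ea (any EG7 array, adjusted p up to 0.0835) and H2-Aa (NB array 3 or any EG7 array, adjusted p up to 0.0692).

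Of 14 dendritic cell genes 3 rose and 2 fell (9.49% and 5.22% of all genes). Without array 2, 1 rose and 4 fell (12.5% and 6.99% of all genes). Ly75, encoding the uptake receptor DEC-205, read 3.02, 3.69 and 3.11 on the neuroblastoma arrays and 4.96, 5.78 and 5.86 on the EG7 arrays and fell by 2.26 ± 0.30 (adjusted p = 0.00515). Ccl17, a chemokine made by dendritic cells and by macrophages exposed to interleukin-4, read 5.87, 7.25 and 6.15 on the neuroblastoma arrays and 9.03, 8.31 and 8.30 on the EG7 arrays, with no overlap, and fell by 2.12 ± 0.40 (adjusted p = 0.0164). Dpp4, Cd24a and the actin bundler Fscn1 rose by 1.35 ± 0.33 (adjusted p = 0.0383), 1.12 ± 0.27 (adjusted p = 0.0389) and 1.22 ± 0.31 (adjusted p = 0.0431). All 3 are also expressed by cells other than dendritic cells, and Flt3, Zbtb46 and Batf3, which define classical dendritic cells, differed by -0.33 ± 0.25, -0.15 ± 0.16 and -0.09 ± 0.51. Itgax, encoding CD11c, was at -1.07 ± 0.34 (adjusted p = 0.0829). It was at -1.45 ± 0.21 without array 2, whose omission lowers its neuroblastoma mean. Dropping 1 array undid the calls of Ccl17 (NB array 3 or EG7 array 1 or 3, adjusted p up to 0.0755), Dpp4 (any NB array or EG7 array 1 or 2, adjusted p up to 0.15), Cd24a (NB array 2 or 3 or EG7 array 1 or 2, adjusted p up to 0.142) and Fscn1 (NB array 1 or 3 or EG7 array 1 or 3, adjusted p up to 0.162).

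Of the alternative activation genes, 1 of 21 rose and 1 fell with all arrays, both chemokines (9.49% and 5.22% of all genes). The fit without array 2 gave 3 rises and 5 falls (12.5% and 6.99% of all genes). The list mean was highest on array 2 among the neuroblastoma arrays, so leaving it out lowers that mean by choice. Ccl24, an attractant of eosinophils made by macrophages exposed to interleukin-4, read 9.36, 9.71 and 10.51 on the neuroblastoma arrays and 7.58, 7.98 and 6.93 on the EG7 arrays. It lay higher on every neuroblastoma array and rose by 2.36 ± 0.38 (adjusted p = 0.00955), whereas Ccl17 fell. Arg1, encoding the arginase of such macrophages, read 12.45, 12.73 and 12.21 on the neuroblastoma arrays and 11.66, 12.06 and 10.99 on the EG7 arrays, a difference of 0.89 ± 0.30 (adjusted p = 0.097). Chil3 varied most among neuroblastoma arrays, at 12.61, 11.37 and 6.99 against 11.83, 11.76 and 11.91. Retnla and Mrc1 differed by 0.25 ± 0.50 and 0.37 ± 0.40. Clec10a read 11.44, 9.86 and 10.06 against 9.57, 9.25 and 8.98, with no overlap, but at 1.19 ± 0.43 (adjusted p = 0.117) did not pass. Mgl2, another lectin gene of such macrophages, was at -1.11 ± 0.39 (adjusted p = 0.109). It was at -1.52 ± 0.27 without array 2, whose omission lowers its neuroblastoma mean. In that fit Alox15 and Rnase2a were higher with Ccl24, and Ccl22, Pdcd1lg2 and Il1rn were lower with Ccl17 and Mgl2.

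Among inflammatory enzymes 1 of 14 rose, against 9.49% of all genes (2 rose and 2 fell without array 2, against 12.5% and 6.99%). It was Ltc4s, the synthase of leukotriene C4, which read 7.73, 7.43 and 8.39 on the neuroblastoma arrays and 5.67, 6.06 and 4.66 on the EG7 arrays, a rise of 2.39 ± 0.41 (adjusted p = 0.0124). The cyclooxygenase gene Ptgs2, high in both models, differed by -0.49 ± 0.36 (adjusted p = 0.415). Of 20 cytokines, 0 were called by limma and 4 had an unadjusted p under 0.05. Il1b read 12.92, 13.54 and 13.15 on the neuroblastoma arrays and 13.36, 13.44 and 13.40 on the EG7 arrays, Tnf 10.12, 11.86 and 10.85 against 11.54, 11.68 and 11.29, and Il6 10.46, 11.36 and 11.21 against 9.97, 10.26 and 10.83. Il18 was higher on all neuroblastoma arrays, at 9.46, 10.89 and 9.55 against 8.79, 8.66 and 8.97, and its difference of 1.16 ± 0.39 did not pass (adjusted p = 0.0974), but was 0.70 ± 0.17 (adjusted p = 0.0398) without array 2. In that fit Ebi3, Il23a, Il1rn and Tnf were at -1.03 ± 0.17, -1.55 ± 0.36, -2.19 ± 0.43 and -1.02 ± 0.27. The cytokine list had a mean of 9.24 on array 2 against 7.67 and 8.55 on neuroblastoma arrays 1 and 3. Leaving array 2 out therefore lowers such differences by choice, and nothing is read from them. Calls that did not survive the loss of 1 array were those of Ccl24 (EG7 array 1, adjusted p = 0.0504) and Ltc4s (EG7 array 1, adjusted p = 0.0534).

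Of 26 chemokine ligand genes 4 rose and 2 fell (9.49% and 5.22% of all genes). Without array 2, 4 rose and 6 fell (12.5% and 6.99% of all genes). Ccl11, encoding eotaxin, read 7.12, 6.92 and 7.62 on the neuroblastoma arrays and 4.44, 4.60 and 4.80 on the EG7 arrays and rose by 2.61 ± 0.22 (adjusted p = 0.00106). Cxcl13, the attractant of B lymphocytes that peritoneal macrophages also make, read 12.09, 9.24 and 9.41 on the neuroblastoma arrays and 6.75, 7.17 and 6.32 on the EG7 arrays. Neuroblastoma array 1 was more than 2 log2 units above arrays 2 and 3, all 3 were above EG7, and the rise was 3.50 ± 0.75 (adjusted p = 0.0261). Ccl9 read 12.69, 12.93 and 12.45 on the neuroblastoma arrays and 13.43, 13.38 and 13.38 on the EG7 arrays and fell by 0.71 ± 0.17 (adjusted p = 0.0358). Cx3cl1, the ligand of Cx3cr1, was near background in EG7 and rose by 0.81 ± 0.18 (adjusted p = 0.0315). Another probe set of Cx3cl1, of lower signal, overlapped between the models, with a difference of 0.06. The monocyte attractants Ccl2 and Ccl7 differed by 0.62 ± 0.22 (adjusted p = 0.115) and 0.60 ± 0.26 (adjusted p = 0.176), and the neutrophil attractants Cxcl1 and Cxcl2 by 0.36 ± 0.18 and -0.13 ± 0.19. Leaving out 1 array ended the calls of Cxcl13 (any EG7 array, adjusted p up to 0.103), Ccl9 (NB array 1 or 3 or any EG7 array, adjusted p up to 0.14) and Cx3cl1 (NB array 1 or 3 or any EG7 array, adjusted p up to 0.084).

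Tgfbr2 and Tgfbr1, receptors for transforming growth factor beta, both rose by the probe sets that stood for them. Other probe sets, all of lower signal, gave differences of 0.45 and -0.09 for Tgfbr2 and 0.17 and 0.13 for Tgfbr1. Tgfbr2 read 11.32, 11.07 and 11.09 on the neuroblastoma arrays and 9.79, 9.85 and 9.62 on the EG7 arrays. Its groups were tight and more than 1 log2 unit apart at the closest, a rise of 1.41 ± 0.15 (adjusted p = 0.00255). Tgfbr1 read 11.09, 10.74 and 11.11 on the neuroblastoma arrays and 9.13, 8.90 and 10.02 on the EG7 arrays and rose by 1.63 ± 0.31 (adjusted p = 0.0171). Of the ligands, Tgfb3 read 8.19, 6.51 and 6.90 on the neuroblastoma arrays and 4.50, 5.36 and 4.26 on the EG7 arrays and rose by 2.49 ± 0.49 (adjusted p = 0.0192), although it ranked only at the 31.2 and 26.1 percentiles of the sorted C arrays. Tgfb1 differed by 0.31 ± 0.36 (adjusted p = 0.62). Tnfrsf1b, encoding the tumour necrosis factor receptor TNFR2, read 9.59, 10.37 and 9.80 on the neuroblastoma arrays and 10.81, 11.06 and 10.73 on the EG7 arrays and fell by 0.95 ± 0.23 (adjusted p = 0.0413), whereas Tnfrsf1a, encoding TNFR1, differed by 0.24 ± 0.20 (adjusted p = 0.47).

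Other receptors on myeloid cells changed singly. Of 22 chemokine and growth factor receptors 3 rose and 1 fell (9.49% and 5.22% of all genes), and 3 and 2 without array 2 (12.5% and 6.99%). Ccr2, the receptor of blood monocytes for Ccl2, overlapped widely, at 8.36, 9.58 and 7.25 against 9.11, 8.13 and 10.27. Fcgrt, encoding the neonatal Fc receptor that recycles immunoglobulin G and albumin, read 11.35, 10.92 and 10.96 on the neuroblastoma arrays and 9.27, 9.22 and 8.85 on the EG7 arrays and rose by 1.96 ± 0.20 (adjusted p = 0.00184), the only call among 17 Fc and inhibitory receptors. The activating Fc receptor Fcgr3 and the inhibitory Fcgr2b differed by 0.14 ± 0.16 and -0.30 ± 0.18. The growth factor genes Nrp1, a coreceptor of vascular endothelial growth factor, and Pdgfb rose by 1.40 ± 0.24 (adjusted p = 0.0121) and 0.93 ± 0.21 (adjusted p = 0.0304), and without array 2 Pdgfb was not called. A further probe set of Pdgfb, of lower signal, gave a difference of 0.37 with overlapping groups. Vegfa and Igf1 differed by -0.32 ± 0.38 (adjusted p = 0.631) and -0.78 ± 0.24 (adjusted p = 0.082). With 1 array left out, the call was lost for Tgfbr1 (NB array 1 or 3 or EG7 array 1 or 2, adjusted p up to 0.083), Tgfb3 (EG7 array 1 or 3, adjusted p up to 0.0885), Tnfrsf1b (NB array 1 or 3 or any EG7 array, adjusted p up to 0.134), Nrp1 (EG7 array 1, adjusted p = 0.0654) and Pdgfb (NB array 2 or 3 or any EG7 array, adjusted p up to 0.0932).

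Lipid genes of macrophages rose at specific members. Apoc1, an apolipoprotein of macrophages and liver, read 8.44, 8.20 and 7.26 on the neuroblastoma arrays and 3.60, 4.11 and 3.20 on the EG7 arrays. The EG7 values lay around the array median and the rise was 4.33 ± 0.37 (adjusted p = 0.00106). Scd1, the desaturase that makes monounsaturated fatty acids, read 11.24, 9.62 and 9.85 on the neuroblastoma arrays and 5.39, 6.49 and 5.55 on the EG7 arrays and rose by 4.43 ± 0.49 (adjusted p = 0.00271). Pltp, the phospholipid transfer protein, read 10.29, 10.30 and 10.42 on the neuroblastoma arrays and 8.77, 9.10 and 8.52 on the EG7 arrays and rose by 1.54 ± 0.19 (adjusted p = 0.00362). Apoc2 fell by 2.19 ± 0.57 (adjusted p = 0.0496), and Apoe, near the top of the scale in both models, was at 0.48 ± 0.14 (adjusted p = 0.0659).

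Scd1 ranked only at the 23.6 and 17.8 percentiles in the sorted C arrays and 23.2 and 19.7 in A, and it is abundant in adipocytes. The adipocyte hormone gene Adipoq read 10.83, 3.71 and 8.16 on the neuroblastoma arrays and 3.07, 2.98 and 3.08 on the EG7 arrays, and like Scd1 was highest on neuroblastoma array 1 and lowest on array 2. What part adipocytes had in Scd1 was not tested. Of 20 lipid genes 3 rose and 1 fell (9.49% and 5.22% of all genes), and 3 and 0 without array 2 (12.5% and 6.99%). The cholesterol exporter Abcg1 and the nuclear receptor Pparg did not pass, at 0.97 ± 0.28 (adjusted p = 0.0618) and 0.59 ± 0.22 (adjusted p = 0.124). Dropping 1 array undid the call of Apoc2 (NB array 1 or 2 or any EG7 array, adjusted p up to 0.176).

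Lysosomal and foam cell genes fell in part. Gpnmb, a glycoprotein of lipid-laden macrophages, read 11.06, 10.58 and 10.78 on the neuroblastoma arrays and 12.48, 12.55 and 12.42 on the EG7 arrays. All neuroblastoma arrays were more than 1 log2 unit below EG7, a difference of -1.68 ± 0.17 (adjusted p = 0.00199). Cd9, a tetraspanin of the same cells, read 10.65, 10.92 and 10.97 on the neuroblastoma arrays and 12.08, 12.25 and 12.05 on the EG7 arrays and fell by 1.28 ± 0.16 (adjusted p = 0.00387). Ctsk, encoding the collagen-degrading cathepsin K, read 9.99, 7.29 and 7.88 on the neuroblastoma arrays and 12.36, 12.56 and 12.40 on the EG7 arrays and fell by 4.05 ± 0.65 (adjusted p = 0.00971). Acp5, the acid phosphatase that marks osteoclasts along with Ctsk, rose by 0.66 ± 0.17 (adjusted p = 0.0491), the opposite direction. The cathepsins Ctsb, Ctsd and Ctsz and the membrane protein Lamp1 differed by 0.08 ± 0.13, -0.12 ± 0.14, -0.27 ± 0.15 and -0.08 ± 0.14. Of 17 genes 1 rose and 3 fell (9.49% and 5.22% of all genes), and without array 2, 0 rose and 4 fell (12.5% and 6.99%). Calls that did not survive the loss of 1 array were those of Ctsk (EG7 array 1, adjusted p = 0.0512) and Acp5 (each of the 6 arrays, adjusted p up to 0.153).

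Matrix proteases gave 4 falls, Ctsk among them, and 1 rise among 16 genes, where 5.22% of all genes fell and 9.49% rose. Without array 2 there were 5 falls and 2 rises (6.99% and 12.5% of all genes). Mmp9, gelatinase B of macrophages and neutrophils, read 8.00, 7.89 and 6.81 on the neuroblastoma arrays and 10.02, 10.02 and 9.96 on the EG7 arrays and fell by 2.43 ± 0.32 (adjusted p = 0.00487). Mmp19 read 5.77, 5.64 and 5.01 on the neuroblastoma arrays and 7.26, 7.65 and 7.16 on the EG7 arrays and fell by 1.88 ± 0.25 (adjusted p = 0.00504). Mmp3 read 4.10, 4.02 and 3.45 on the neuroblastoma arrays and 9.97, 10.26 and 9.93 on the EG7 arrays, a difference of -6.20 ± 0.22 (adjusted p = 8.53e-05), yet ranked only at the 22.1 and 16.1 percentiles in the sorted C arrays and 32 and 18.4 in A. The inhibitor Timp3, which binds to the matrix, read 11.11, 10.37 and 10.64 on the neuroblastoma arrays and 6.77, 6.46 and 6.62 on the EG7 arrays and rose by 4.09 ± 0.22 (adjusted p = 0.000213), at the 32 and 41.7 percentiles in C and 49.5 and 39.8 in A. Mmp12 and Mmp14, expressed strongly in both models, differed by 0.21 ± 0.22 (adjusted p = 0.567) and -0.53 ± 0.16 (adjusted p = 0.0724), and Mmp13 was higher on all neuroblastoma arrays, at 10.09, 11.62 and 10.80 against 7.80, 9.76 and 9.01, without passing (adjusted p = 0.0657). Mmp9 was the only call among 16 neutrophil markers, and S100a8 read 13.01, 11.98 and 11.22 against 12.84, 12.08 and 12.57.

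**Figure D4:**
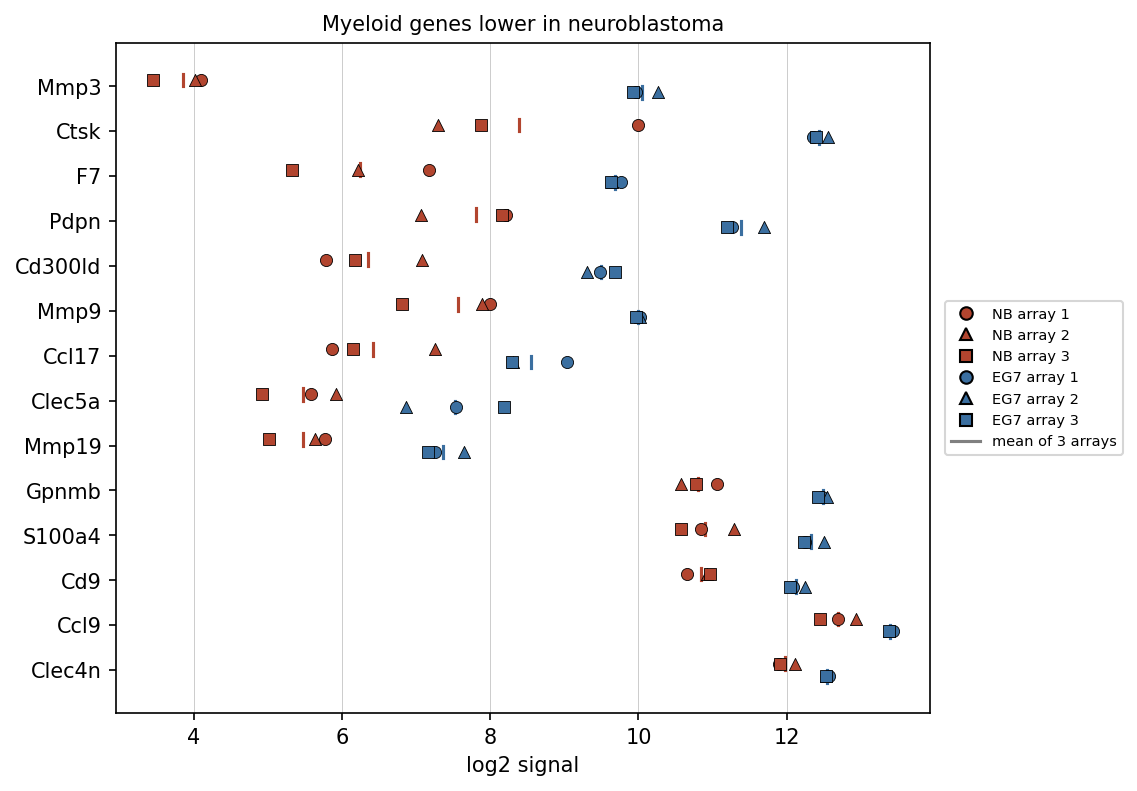
Log2 signal (x axis) of 14 genes that fell in neuroblastoma (rows) on each array; red points are neuroblastoma (NB), blue points EG7, shapes give the array number and vertical lines the mean of 3 arrays. No gene shown has overlapping groups; Mmp3 is farthest apart (3.45 to 4.10 against 9.93 to 10.26) and Clec4n closest (11.90 to 12.11 against 12.53 to 12.57).

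Of 19 monocyte genes 1 rose and 1 fell (9.49% and 5.22% of all genes). Without array 2, 1 rose and 4 fell (12.5% and 6.99% of all genes). S100a4, a calcium-binding protein of motile monocytes, read 10.84, 11.29 and 10.58 on the neuroblastoma arrays and 12.24, 12.50 and 12.23 on the EG7 arrays and fell by 1.42 ± 0.22 (adjusted p = 0.00821). Treml4, a receptor of non-classical monocytes and some macrophages, read 8.39, 10.02 and 9.10 on the neuroblastoma arrays and 7.68, 7.10 and 6.95 on the EG7 arrays and rose by 1.93 ± 0.42 (adjusted p = 0.0283). Plac8, Ms4a4c and Itgal, other members of the list, did not pass with all arrays. Without array 2, on which the list mean was highest among neuroblastoma arrays, they were at -1.08 ± 0.22, -1.38 ± 0.26 and -0.79 ± 0.21. Vcan, F13a1 and Fn1 differed by -2.22 ± 0.73, 0.53 ± 0.38 and -0.08 ± 0.30. Leaving out 1 array ended the call of Treml4 (NB array 3 or any EG7 array, adjusted p up to 0.0989).

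Of 27 transcription factors 3 rose, where 9.49% of all genes rose, and without array 2, 2 rose and 3 fell (12.5% and 6.99%). Besides Spic and Gata6, Atf3, a stress-induced factor that is also among the immediate-early genes, read 12.43, 12.18 and 12.12 on the neuroblastoma arrays and 11.53, 11.78 and 11.32 on the EG7 arrays and rose by 0.70 ± 0.18 (adjusted p = 0.0462). Id3, which resident macrophages of liver and other tissues depend on, was higher on all neuroblastoma arrays, at 9.33, 9.10 and 8.49 against 8.08, 8.21 and 7.88, and at 0.92 ± 0.24 (adjusted p = 0.0516) missed the threshold. Cebpb, Irf8, Maf, Klf4 and Stat6 did not pass, and Irf8 read 9.24, 10.59 and 9.22 against 9.41, 9.51 and 9.29. Atf3 was the only call among 15 immediate-early genes, and Fos, Jun and Egr1 differed by 0.20 ± 0.15, 0.81 ± 0.40 and 0.74 ± 0.29. Of 23 cell cycle genes 1 fell (5.22% of all genes), Mcm3 at -1.21 ± 0.31 (adjusted p = 0.0445), and Mki67 read 8.40, 6.89 and 8.76 against 8.84, 7.0 and 9.54. With 1 array left out, the call was lost for Atf3 (each of the 6 arrays, adjusted p up to 0.162) and Mcm3 (NB array 3 or any EG7 array, adjusted p up to 0.166).

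Of 20 glycolysis and hypoxia genes 2 fell, against 5.22% of all genes. The phosphofructokinase gene Pfkp and the pyruvate dehydrogenase kinase gene Pdk1 fell, at -1.0 ± 0.24 (adjusted p = 0.0399) and -1.34 ± 0.30 (adjusted p = 0.0297). Other probe sets of Pdk1 gave differences of -1.41 and, with overlapping groups, -0.25. Hif1a, Slc2a1 and Ldha differed by -0.47 ± 0.27, -0.17 ± 0.37 and -0.32 ± 0.14. Of 15 checkpoint ligand and ectonucleotidase genes Vsig4, which also inhibits T lymphocytes, and Entpd1, encoding the ATP-degrading enzyme CD39, rose, the latter by 0.68 ± 0.16 (adjusted p = 0.0327), while Nt5e, encoding CD73, was at -0.73 ± 0.23 (adjusted p = 0.0785). The 2 rises among 15 stand against 9.49% of all genes. Without array 2, 1 gene of that list rose and 2 fell (12.5% and 6.99% of all genes in that fit). Of the Ms4a family 0 of 8 were called by limma and 0 had an unadjusted p under 0.05. Ms4a7, a macrophage member, read 11.49, 11.57 and 11.50 against 11.55, 11.45 and 11.52. Dropping 1 array undid the calls of Pfkp (NB array 1 or 3 or any EG7 array, adjusted p up to 0.146), Pdk1 (NB array 3 or any EG7 array, adjusted p up to 0.114) and Entpd1 (NB array 1 or 2 or any EG7 array, adjusted p up to 0.121).

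Many interferon response genes were highest on neuroblastoma array 2. With all arrays, 0 of 17 interferon-gamma response genes and 0 of 20 type I interferon response genes were called by limma, and 0 and 1 had an unadjusted p under 0.05. Cxcl9, a chemokine induced by interferon-gamma, read 6.28, 11.95 and 7.12 on the neuroblastoma arrays and 10.83, 10.61 and 10.21 on the EG7 arrays. Array 2 exceeded all EG7 arrays while arrays 1 and 3 lay more than 3 log2 units below them, and the difference was -2.10 ± 1.38 (adjusted p = 0.36). The GTPase gene Gbp2 read 7.37, 10.47 and 7.41 on the neuroblastoma arrays and 10.31, 10.28 and 10.16 on the EG7 arrays, and the immunoproteasome gene Psmb9 read 7.63, 10.46 and 8.38 on the neuroblastoma arrays and 10.06, 10.02 and 9.95 on the EG7 arrays, with the same order of arrays. Since array 2 was singled out for its high interferon genes, differences without it follow in part from that choice and are given here without a test. They were negative, with Cxcl9 at -3.85 ± 0.32, Gbp2 at -2.86 ± 0.16 and Psmb9 at -2.0 ± 0.25.

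Without array 2 the median difference of the 17 interferon-gamma response genes was -1.27, against -0.28 with all arrays, and 8 were called lower, where 6.99% of all genes were. That count is fixed in part by leaving out the array on which these genes are high, and nothing is read from it. The other 5 were Psmb8 at -1.47 ± 0.22, the GTPases Igtp and Irgm1 at -1.61 ± 0.17 and -1.27 ± 0.18, Cd274, encoding PD-L1, at -1.16 ± 0.20, and the feedback inhibitor Socs1 at -1.64 ± 0.34. Of 20 type I interferon genes 4 were called lower, namely Zbp1 at -2.42 ± 0.38, Cmpk2 at -1.83 ± 0.37, Oasl2 at -1.33 ± 0.33 and Mx1 at -0.97 ± 0.23. Ifit2, Ifit3 and Oasl1 were close to 0, with differences of 0.04 ± 0.57, -0.16 ± 0.44 and -0.26 ± 0.64. Xaf1 was represented by probe sets that pointed opposite ways, 8.30, 11.00 and 8.24 against 3.62, 3.51 and 3.62 for one and 4.42, 6.42 and 7.31 against 8.19, 8.27 and 7.78 for the other, and no direction is given.

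Other inflammatory genes had the same pattern over the arrays. Pdcd1lg2, encoding PD-L2, read 3.64, 8.01 and 5.40 on the neuroblastoma arrays and 7.47, 7.67 and 7.62 on the EG7 arrays, and was at -3.07 ± 0.49 without array 2. Acod1, the enzyme that makes itaconate, read 9.25, 12.38 and 10.50 on the neuroblastoma arrays and 11.72, 11.99 and 11.81 on the EG7 arrays, and was at -1.97 ± 0.37 without it. With all arrays 0 of 23 pattern recognition genes and 0 of 18 NF-kB genes were called by limma, and 4 and 2 had an unadjusted p under 0.05. Without array 2, 6 and 4 genes of these lists were called lower, where 6.99% of all genes were. Among them were Tlr2 at -1.14 ± 0.21, Pycard at -1.31 ± 0.19, Traf6 at -1.38 ± 0.15 and Traf1 at -2.04 ± 0.24. Both list means were highest on array 2 among the neuroblastoma arrays. Leaving it out therefore lowers such differences by choice, and nothing is read from these counts. Genes of cytotoxic lymphocytes moved with array 2 as well, with Gzma at 2.94, 10.60 and 5.61 on the neuroblastoma arrays and 6.21, 6.32 and 6.23 on the EG7 arrays and Nkg7 at 3.05, 8.10 and 3.60 on the neuroblastoma arrays and 5.97, 4.92 and 5.32 on the EG7 arrays. Of 9 natural killer cell markers 0 were called by limma and 1 had an unadjusted p under 0.05. Leaving out array 2, where their mean was highest, gave 3 called lower (6.99% of all genes), and nothing is read from that count. The part of lymphocytes in the interferon genes of array 2 was not tested.

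**Figure D5:**
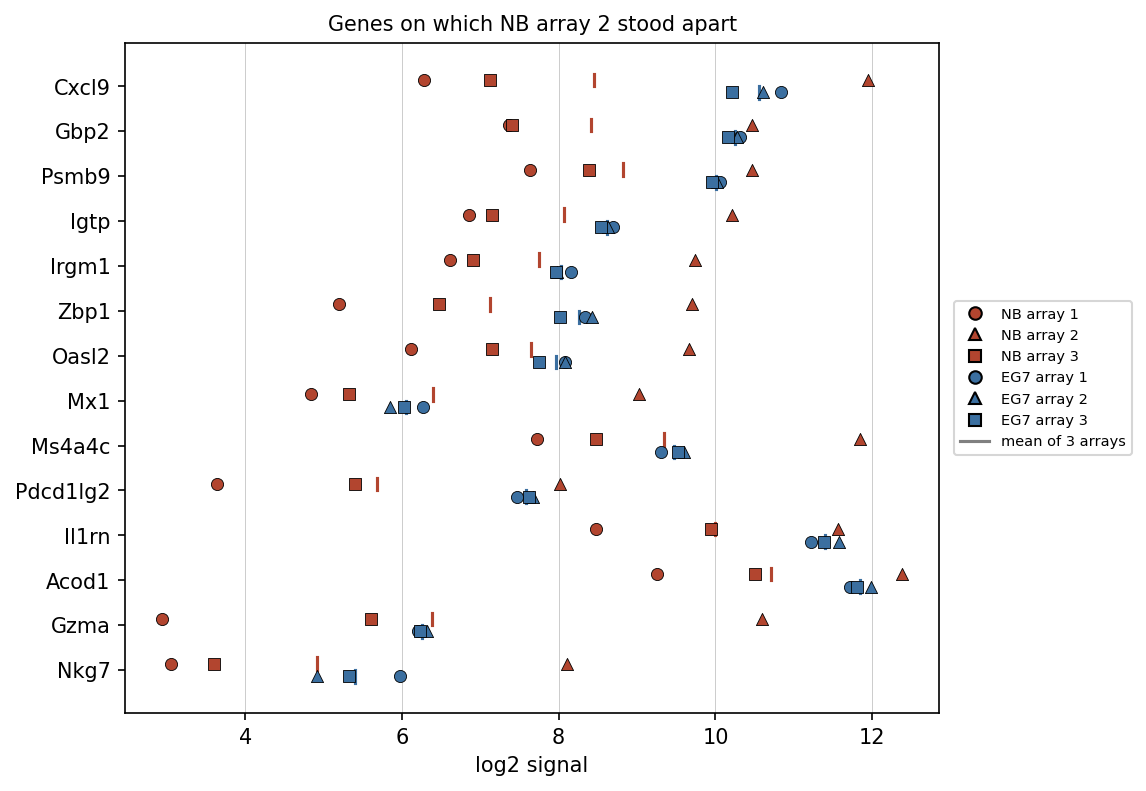
Log2 signal (x axis) of 14 genes (rows) on which neuroblastoma (NB) array 2 stood apart; red points are neuroblastoma, blue points EG7, shapes give the array number and vertical lines the mean of 3 arrays. For Cxcl9 the NB values are 6.28, 11.95 and 7.12 around EG7 values of 10.21 to 10.83, and in every row NB array 2 (triangle) is the highest NB value and NB array 1 (circle) the lowest.

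The largest rises among shared genes included genes known from stromal cells, neurons and B lymphocytes. Ranked by size, and among genes whose groups did not overlap, the 12 were Igkj1, Mgp, Fhl1, F2r, Cxcl13, Tmem87a, Mllt11, Prss23, Ednrb, Dnm1, Notch3 and Ccl11, with differences from 4.52 to 2.61. F2r, the thrombin receptor PAR1, read 11.09, 9.92 and 11.04 on the neuroblastoma arrays and 7.37, 6.67 and 7.37 on the EG7 arrays and rose by 3.55 ± 0.37 (adjusted p = 0.00218). Notch3, a receptor of pericytes and smooth muscle, read 9.81, 8.82 and 9.25 on the neuroblastoma arrays and 6.75, 6.66 and 6.54 on the EG7 arrays and rose by 2.64 ± 0.26 (adjusted p = 0.00179). Ednrb, a receptor for endothelins, rose by 2.69 ± 0.49 (adjusted p = 0.0149). Igkj1, a segment of the immunoglobulin kappa locus, read 9.24, 12.83 and 11.79 against 7.61, 5.74 and 6.96, a rise of 4.52 ± 0.94 (adjusted p = 0.0234), and was highest on array 2, as was the B lymphocyte list.

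Tmem87a and Mllt11 rose by 2.84 ± 0.27 (adjusted p = 0.00157) and 2.76 ± 0.25 (adjusted p = 0.00134), and Dnm1, the dynamin of neurons, by 2.64 ± 0.41 (adjusted p = 0.00895). For Fhl1, Mllt11 and Dnm1 another probe set was near background on all 6 arrays, with differences of 0.00, -0.01 and 0.03. In the sorted A arrays F2r ranked at the 86.8 and 85.9 percentiles and Notch3 at 67.6 and 68.1. Of the fibroblast and pericyte markers 4 of 13 rose and 1 fell (9.49% and 5.22% of all genes). Rgs5, a pericyte gene, read 11.91, 10.20 and 11.45 on the neuroblastoma arrays and 8.43, 7.59 and 9.42 on the EG7 arrays. The part of stromal, tumour and B lymphocyte RNA in these 12 differences was not tested. Calls that did not survive the loss of 1 array were those of Igkj1 (NB array 3 or any EG7 array, adjusted p up to 0.0828) and Ednrb (NB array 3 or EG7 array 1 or 3, adjusted p up to 0.0727).

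The largest falls among shared genes included several that ranked near the top in sorted EG7 macrophages. The 12 were H2-Eb1, Ctsk, Prickle1, Pdpn, F7, Ptprcap, Tspan32, Cd300ld, Ikzf2, Wfs1, Cdk6 and, by a probe set that its other probe sets do not all bear out, H2-Aa, with differences from -4.56 to -2.63. Pdpn, encoding podoplanin, a glycoprotein of inflammatory macrophages and lymphatic vessels, read 8.21, 7.07 and 8.16 on the neuroblastoma arrays and 11.26, 11.69 and 11.20 on the EG7 arrays and fell by 3.57 ± 0.34 (adjusted p = 0.00155). It ranked at the 96.9 and 97 percentiles in C and 87.3 and 80.5 in A. Cd300ld, a receptor of the CD300 family on myeloid cells, read 5.78, 7.08 and 6.18 on the neuroblastoma arrays and 9.48, 9.31 and 9.69 on the EG7 arrays and fell by 3.15 ± 0.33 (adjusted p = 0.00238), and ranked at 96.6 and 96.2 in C and 94.9 and 92.8 in A. Ctsk ranked at 94.2 and 93.8 in C and at 71.1 and 68.1 in A.

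Tspan32, a tetraspanin of blood cells, fell by 3.20 ± 0.32 (adjusted p = 0.00182), and Wfs1, a protein of the endoplasmic reticulum, was at -2.85 ± 0.20 (adjusted p = 0.000621). Prickle1, of the planar polarity pathway, read 5.64, 5.33 and 5.95 on the neuroblastoma arrays and 9.32, 9.30 and 9.11 on the EG7 arrays and fell by 3.60 ± 0.20 (adjusted p = 0.000213). Cdk6, a cell cycle kinase, and Ikzf2, a lymphocyte transcription factor, fell, at -2.63 ± 0.21 (adjusted p = 0.000825) and -3.02 ± 0.38 (adjusted p = 0.00425), and Ptprcap, which associates with CD45 in lymphocytes, was at -3.20 ± 0.67 (adjusted p = 0.0237). Other probe sets of Tspan32 and Ikzf2 gave differences of -0.82 and -0.49. T lymphocyte and EG7 line markers fell for 11 of 14, where 5.22% of all genes fell. The part of EG7 cells in Cdk6, Ikzf2, Ptprcap and Prickle1 was not tested. Leaving out 1 array ended the call of Ptprcap (NB array 3 or any EG7 array, adjusted p up to 0.0967).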

How the data were processed

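The values are log2 signals per probe set that the authors deposited, and the submitters' processing notes name RMA and version 1.1 of Expression Console from Affymetrix. RMA equalises array distributions, so a change shared by most genes cannot be seen. Only the 6 arrays of the comparison entered the fit. EG7 arrays of the other experiment on this chip were normalised separately and stay out of the fit, but they helped choose the probe set of each gene. The glioma arrays that the series design names are not analysed here.

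Of 45141 probe sets, 28898 carry 1 gene symbol, 551 several and 15692 none in the platform annotation; only the first were used, giving 17097 genes. Each gene was represented by the probe set with the highest mean over the chip's 16 arrays and kept if above the array's 40th percentile in at least 3 arrays. The models were compared with limma 3.58.1 (lmFit, eBayes, two-sided, Benjamini-Hochberg over all genes tested) in R 4.3.3, after the script was tested on simulated data. The number of arrays, 3 a group, limits the precision. Promoter sequences are from RefSeq, assembly GRCm38.p6.

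The genes named are the 12 largest rises and 12 largest falls among shared genes whose groups do not overlap, and, from each gene list, up to 6 called members by smallest adjusted p (up to 3 for other cell types) or the 2 of highest level where none was called, with further list members given to show what did not pass or what passed without neuroblastoma array 2. The lists and the comparison were chosen with earlier results of these data known. Alternatives tried were other filters, quantile normalisation, scaling to the pan-myeloid mean, other probe-set rules, trended and robust eBayes, array weights, a replicate block, other expression thresholds and leaving out each array.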

Additional observations from a re-analysis of the deposited data

How the results depend on the processing

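The 1850 calls over all genes numbered between 1364 and 2639 under the settings other than leaving out an array, and the 537 shared calls moved to 312 with pan-myeloid scaling, 851 with array weights and 216 when expression was set at the 75th percentile. Leaving out 1 array gave 663 (EG7 array 1) to 2509 (neuroblastoma array 2) calls over all genes, 976 and 933 without EG7 arrays 2 and 3, 112 to 767 shared calls and 59 to 190 calls over the 117 list calls, with 76 without EG7 array 3. The replicate numbers do not pair the arrays: deviations of same-numbered arrays correlated at -0.03, 0.22 and -0.05. With the number as a block the counts were 1364 and 302, and 1279 of 1850, 280 of 537 and 85 of 106 named calls were made there too. H2-Aa reversed, to 0.33 ± 0.28 (limma adjusted p = 0.48), when the 6 arrays alone chose the probe set, since a different probe set then stands for the gene. All 106 named calls kept their sign with each array left out, and 57 were called in all 6 fits. The causes of the other differences were not tested. Signal near background limits genes such as Cx3cl1, Ly75 and Gata6 in the model where they are low.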

Other observations

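Markers of rarer cells and of neighbouring organs varied among the neuroblastoma arrays. The mast cell protease gene Cpa3 read 3.39, 3.44 and 3.19 on the neuroblastoma arrays and 5.09, 4.27 and 5.53 on the EG7 arrays and was called lower by limma, at -1.62 ± 0.32 (adjusted p = 0.0193), while the receptor gene Kit was higher, at 1.16 ± 0.30 (adjusted p = 0.0495). With 1 array left out, the call was lost for Cpa3 (NB array 1 or 3 or EG7 array 1 or 3, adjusted p up to 0.0903) and Kit (any NB array or EG7 array 1 or 3, adjusted p up to 0.173). Ebf1, a factor of B lymphocytes that stromal cells also express, read 8.55, 7.77 and 8.08 on the neuroblastoma arrays and 6.69, 6.10 and 6.76 on the EG7 arrays, a difference of 1.62 ± 0.27 (adjusted p = 0.0112), and Pou2af1, a coactivator of B lymphocytes, read 3.04, 8.08 and 6.22 against 8.47, 8.37 and 8.49.

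Digestive enzymes of the pancreas were highest on neuroblastoma array 3. Ctrb1, a chymotrypsinogen gene, read 4.04, 5.62 and 10.83 on the neuroblastoma arrays and 4.49, 4.69 and 4.29 on the EG7 arrays, and the carboxypeptidase gene Cpa1 read 3.50, 3.93 and 9.19 against 3.81, 3.92 and 3.44. Slc12a3, a salt transporter gene of the kidney tubule, read 5.03, 7.22 and 5.54 on the neuroblastoma arrays and 2.82, 3.26 and 2.96 on the EG7 arrays, with its highest value on neuroblastoma array 2. The mesothelial gene Gpm6a read 6.99, 5.85 and 7.14 on the neuroblastoma arrays and 2.67, 2.61 and 2.51 on the EG7 arrays, a difference of 4.06 ± 0.34 (adjusted p = 0.00103). Mycn itself differed by 0.33 ± 0.19 (adjusted p = 0.289), at 3.85, 4.43 and 4.10 against 3.85, 3.68 and 3.85; the transgene in these mice is MYCN of human sequence, and the probe set was not checked against it.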
